A study of Mus musculus with 15 samples.

Results

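The 10 genes described here are Nlrp3 and Aim2, Pycard, Casp1, Gsdmd, Il1a, Il1b, Il18, Il1rn and Tnf. They were chosen by name, as the genes of the inflammasome and of the proinflammatory cytokines linked to it, with earlier results of these data known. All 10 were found by symbol among the 46078 genes of the count table. The low-count filter kept 8 of them among the 18974 genes that were tested, and Il1rn and Tnf fell below it.

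An inflammasome is a protein complex that forms in the cytosol of macrophages, microglia and related cells when a sensor such as NLRP3 or AIM2 detects damage, crystals, aggregates or misplaced DNA. The sensor gathers the adaptor ASC, encoded by Pycard, which recruits the protease caspase-1, encoded by Casp1. Caspase-1 cuts the precursors of the cytokines IL-1β and IL-18 into their active forms and opens gasdermin D, encoded by Gsdmd, into a membrane pore that releases them and can kill the cell. IL-1α acts on the same receptor as IL-1β, the product of Il1rn blocks that receptor, and TNF is a separate inflammatory cytokine of the same cells. In the brain, NLRP3 and ASC are best known from microglia around amyloid plaques, and most of the control lies in protein assembly and cleavage, which RNA levels do not show.

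RNA was sequenced from brain tissue of 15 mice in 3 groups of 5, each mouse giving 1 library. The first group was wild-type (WT) mice given PBS (100 µL, 10 injections over 4 weeks). The second was APP-PS1 mice (APP Swedish PS1 dE9) given PBS in the same volume and on the same schedule. The third was APP-PS1 mice that received anti-CD8a antibody (clone 2.43) by intraperitoneal injection, 10 times 0.8 mg over 4 weeks. All mice were 12 months old and both sexes were used, unequally between the genotypes. The mice labelled male were WT replicate 5, APP-PS1 PBS replicates 1, 2 and 3, and anti-CD8a replicates 1, 4 and 5. All others were labelled female. Sex is thus partly tied to genotype in the comparisons with WT, and the main model held labelled sex as a covariate. APP-PS1 mice carry the transgenes Mo/HuAPP695swe, a mouse-human chimera of the amyloid precursor with the Swedish mutation, and PS1-dE9, a mutated human presenilin. The prion protein promoter drives both in neurons of the central nervous system, so that the model rests on neurons that overexpress the transgenes. CD8a is a co-receptor of cytotoxic T cells. No library from mice given an isotype antibody was analysed here, so the effect of the antibody against CD8a cannot be told apart from that of injecting an antibody. Which brain region was dissected is unknown from the labels.

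Assigned counts per library ranged from 17736500 to 36485800, and 3 counts corresponded to 0.0824 to 0.165 CPM (counts relative to library size, with TMM factors), a floor for counting error only. Neuron markers stood at similar sums in all groups, between 7198 and 8008 CPM over 8 genes. In 5 libraries, called choroid-rich below, the choroid plexus gene Ttr exceeded 1000 CPM (WT replicates 3 and 5, APP-PS1 PBS replicates 2 and 5, anti-CD8a replicate 1), against 20.7 to 107 CPM in the others. The library labelled APP-PS1 PBS replicate 1 was labelled male but had Xist at 1921 CPM and 4 Y-linked genes at a sum of 2.08 CPM. Cst7, a gene of plaque-associated microglia, separated the genotypes with 0.231 to 0.423 CPM in WT and 9.31 to 53.1 CPM in APP-PS1 libraries. Cd8a was near the floor in every library (3 to 21 counts), so the RNA gives little measure of the depletion.

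Relative to exon length, Il18 was the most abundant of the 10 transcripts and Il1rn the least, and the order was the same in the 3 groups. Il18 had 16.6 ± 2.87 CPM per kilobase in WT mice, and its lowest library lay above the highest library of every other member. Casp1 (1.86 ± 0.369), Aim2 (1.65 ± 0.202) and Gsdmd (1.17 ± 0.129) followed, with overlapping libraries between neighbours in this order (SD, n = 5 WT mice each). Pycard (0.470 ± 0.0754), Il1a (0.381 ± 0.0394) and Nlrp3 (0.322 ± 0.0707) formed the next step and overlapped too, all below the lowest Gsdmd library. The length used merges the exons of all annotated transcripts. For Pycard it was 3800 bases, nearly the whole span of the gene (chr7:127989708-127993867). A gene whose main transcript is much shorter than this length would rank higher, and which transcripts were present was not tested. Il1b stood at 0.152 ± 0.0473 CPM per kilobase, and Tnf (0.0295 ± 0.0344) and Il1rn (0.00676 ± 0.00730) were at or near the floor. By this measure the sensor NLRP3 and the cytokines of the IL-1 receptor had scarcer transcripts than the protease, the pore protein and Il18.

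**Figure D1:**
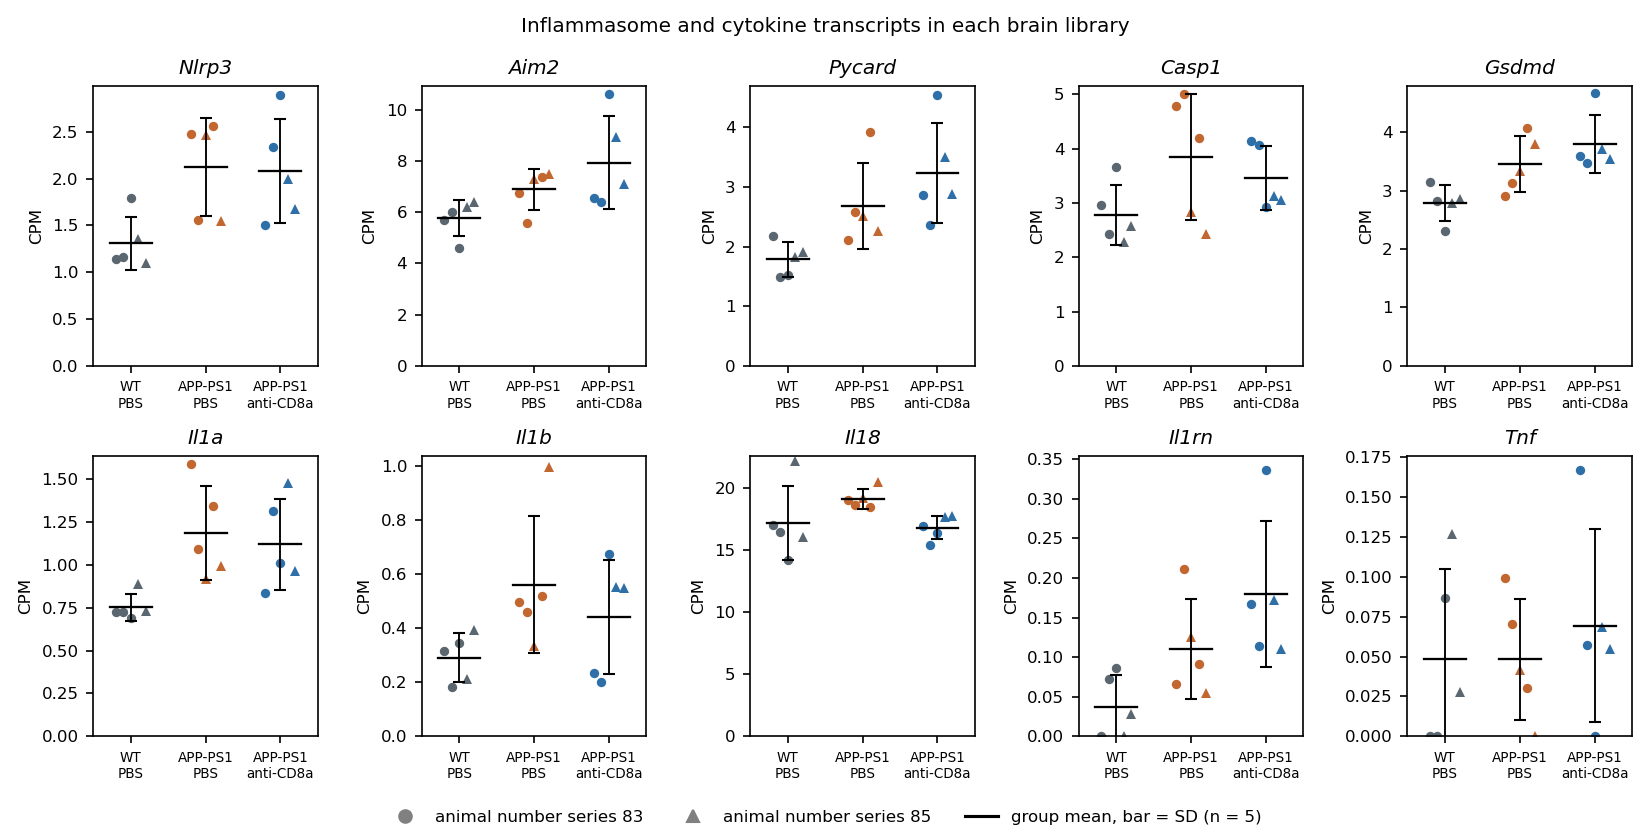
Level of each of the 10 transcripts in every library (CPM, linear axis from 0) for WT PBS, APP-PS1 PBS and APP-PS1 anti-CD8a mice; each point is 1 mouse, circles and triangles mark the 2 series of animal numbers in the labels (starting with 83 and with 85), the line is the group mean and the bar its SD (n = 5). Pycard rises from a mean of 1.78 CPM in WT to 3.23 CPM in anti-CD8a mice, Il18 stays between 14.2 and 22.1 CPM in all libraries, and Il1rn and Tnf are at a few counts or none.

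The windows of 250 bases before the RefSeq start sites (build GRCm38.p6) give the sequence context of the genes whose values are compared below. Windows were matched for 9 members, 12 windows in all, with Gsdmd the member without one. They are shown for the adaptor, for a sensor and the protease whose levels were inversely correlated among mice of a group, and for the neighbouring pair Il1a and Il1b, 5′ to 3′ on the strand of the gene, with the motif matches in capitals.
Pycard, chr7:127993868-127994117, minus strand: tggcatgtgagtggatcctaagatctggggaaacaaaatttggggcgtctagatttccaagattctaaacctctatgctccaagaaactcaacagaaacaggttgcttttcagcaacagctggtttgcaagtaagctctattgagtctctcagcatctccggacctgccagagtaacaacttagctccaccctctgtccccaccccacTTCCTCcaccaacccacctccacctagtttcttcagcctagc
Aim2, chr1:173420354-173420603, plus strand: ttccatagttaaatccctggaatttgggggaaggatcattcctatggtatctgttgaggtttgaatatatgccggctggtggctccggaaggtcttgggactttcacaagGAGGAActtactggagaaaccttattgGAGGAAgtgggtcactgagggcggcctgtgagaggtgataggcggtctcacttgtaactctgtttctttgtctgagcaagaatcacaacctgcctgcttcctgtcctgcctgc
Casp1, chr9:5298267-5298516, plus strand: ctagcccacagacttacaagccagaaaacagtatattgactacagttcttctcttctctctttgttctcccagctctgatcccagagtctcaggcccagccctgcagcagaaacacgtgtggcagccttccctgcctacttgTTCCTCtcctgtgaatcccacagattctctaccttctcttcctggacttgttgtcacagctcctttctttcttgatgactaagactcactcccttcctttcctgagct
Il1a, chr2:129309973-129310222, minus strand: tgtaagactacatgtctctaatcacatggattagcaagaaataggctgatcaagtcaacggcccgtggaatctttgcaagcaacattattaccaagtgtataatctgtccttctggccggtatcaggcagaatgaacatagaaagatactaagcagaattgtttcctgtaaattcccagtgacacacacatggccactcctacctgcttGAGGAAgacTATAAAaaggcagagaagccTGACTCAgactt
Il1b, chr2:129371140-129371389, minus strand: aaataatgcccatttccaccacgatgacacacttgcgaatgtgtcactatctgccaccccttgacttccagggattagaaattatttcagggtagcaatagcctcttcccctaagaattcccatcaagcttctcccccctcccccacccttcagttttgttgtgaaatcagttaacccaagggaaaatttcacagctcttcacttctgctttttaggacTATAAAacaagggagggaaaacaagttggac
The 5 motifs searched on both strands were GAGGAA (the core bound by PU.1, a transcription factor of microglia and macrophages), TGANTCA (AP-1), TATAAA (the TATA box), the interferon-stimulated element and the kappaB consensus. GAGGAA or its reverse complement was in 6 of the 12 member windows, 1 each for Aim2, Casp1, Il1a, Nlrp3, Pycard and Tnf, and in 23.3% of the 32851 windows of all genes. In Pycard it lay 42 bases before the start and in Casp1 108 bases before it, while the Aim2 window held it at 140 and 113 bases. TATAAA was found in 4 of the 12 (for Il18, Il1a, Il1b and Tnf) and in 12.4% of all windows, and TGANTCA in 2 (for Il1a and Il1rn) and in 6.75% of all windows. The kappaB consensus matched 1 of the 12, for Nlrp3 (3.9% of all windows), and the interferon-stimulated element none (2.98%). In Il1a the capitals are, in order, the PU.1 core, the TATA box 32 bases before the start and AP-1 at 12 bases, and Il1b shares a TATA box at 31 bases. These matches describe letters and are no evidence of binding.

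In APP-PS1 mice given PBS, the transcripts of the inflammasome stood above WT on average, but no single member passed the test. All 8 tested members had a higher estimate than in WT, where 46.9% of all genes tested did, and their median log2 fold change was 0.55 against -0.01 for all genes. The largest were Il1b (0.90 ± 0.39, SE) and Nlrp3 (0.83 ± 0.22), and the smallest was Il18 (0.15 ± 0.10). None of the 8 passed an adjusted p of 0.05 over all genes in edgeR's quasi-likelihood test, in which 0.938% of genes were called higher and 0.0896% lower, and the smallest adjusted p was 0.0943, for Nlrp3. At an unadjusted p under 0.05 there were 5 of 8 members (Nlrp3, Pycard, Gsdmd, Il1a and Il1b), all higher, against 11.5% of all genes in either direction and 5.43% higher. DESeq2 called 1 member, Nlrp3, with an adjusted p of 0.0257, where it called 1.94% of genes. The 5 APP-PS1 libraries lay wholly above the 5 WT libraries for Il1a alone, as they did for 1.83% of genes.

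Between the antibody-treated and the PBS-given APP-PS1 mice, no member differed by the test. Estimates were higher for 3 of 8 members (54.1% of all genes) with a median of -0.08 (0.02 for all genes), and they ran from -0.30 ± 0.36 (Il1b) to 0.26 ± 0.19 (Pycard). Adjusted p-values in edgeR ranged upward from 0.400 (Il18), and no gene at all was called in this comparison (0% of 18974, smallest adjusted p 0.223). None of the 8 had an unadjusted p under 0.05, against 13.3% of all genes (7.59% higher), and DESeq2, which gave an adjusted p for 5 of them, called 0 (1.04% of genes). No member had all treated libraries above all PBS-given ones (0.954% of genes did). The 95% intervals of the fold change were 0.717 to 1.27 for Nlrp3, 0.907 to 1.59 for Pycard, 0.668 to 1.19 for Casp1, 0.929 to 1.31 for Gsdmd and 0.480 to 1.38 for Il1b. These intervals leave room for changes of those sizes, and are no evidence that the groups were alike.

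In the main fit, the antibody-treated APP-PS1 mice had more RNA of the adaptor and of the pore protein than WT mice. Pycard rose by 0.92 ± 0.20 on the log2 scale (1.89-fold, 95% interval 1.40 to 2.54, adjusted p = 0.0251 in edgeR) and Gsdmd by 0.51 ± 0.12 (1.42-fold, 1.19 to 1.70, adjusted p = 0.0411). Both calls depended on single libraries: over the 15 fits that each left out 1, Pycard kept its call in 11 and Gsdmd in 2. In all, 2 of 8 members were called higher and 0 lower, where 1.76% and 0.184% of all genes were. Nlrp3 had a nearly equal estimate (0.77 ± 0.21) that did not pass (adjusted p = 0.0852), and the median of the 8 was 0.55 (-0.0032 for all genes). Estimates were higher for 7 of 8 members (48.9% of all genes), and 5 of 8 had an unadjusted p under 0.05, all higher (12.1% of all genes in either direction, 6.81% higher). DESeq2 called 3 members (Nlrp3, Pycard and Gsdmd), where it called 2.81% of genes. Treated and WT libraries did not overlap for 3 of the 8 tested members, Aim2, Pycard and Gsdmd, with the treated libraries higher, as for 2.16% of tested genes. This comparison differs in both genotype and antibody and shares the WT libraries with the first and the treated libraries with the second. That Pycard and Gsdmd passed here and not in the PBS groups shows no difference between the APP-PS1 groups, whose direct comparison gave adjusted p-values of 0.544 and 0.596.

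**Figure D2:**
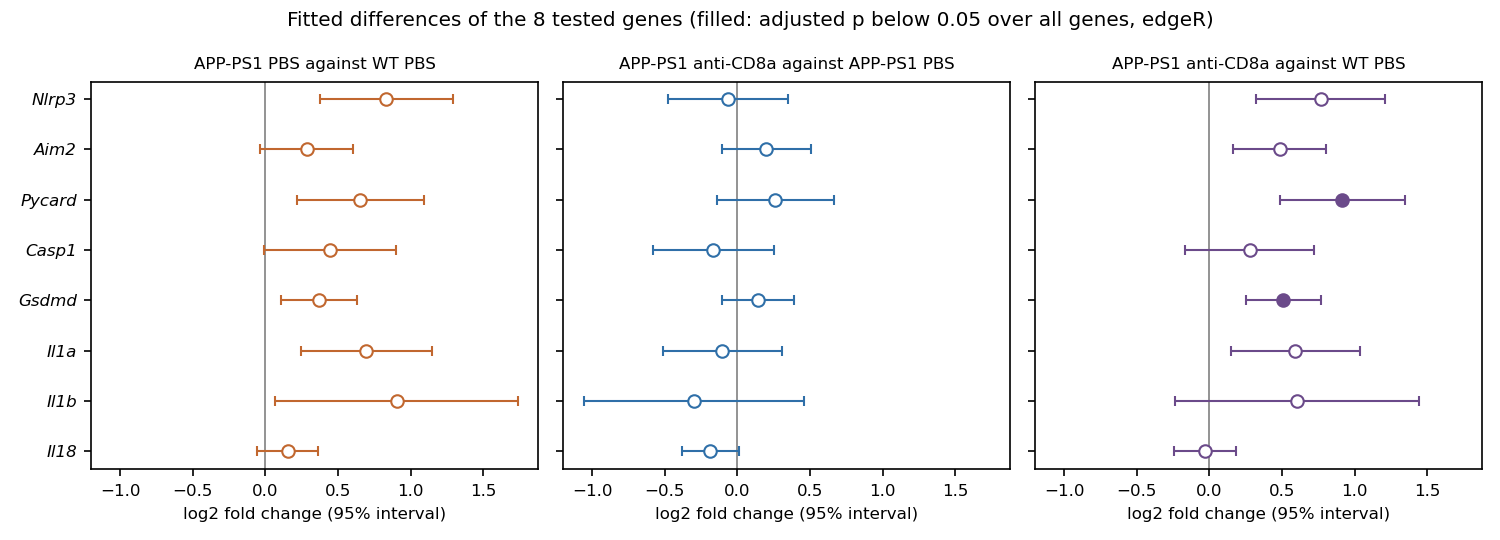
Fitted log2 fold change of the 8 tested members (points) with its 95% interval (bars) in the 3 comparisons; filled points have an adjusted p below 0.05 over all genes in edgeR's test. Filled points are Pycard (0.92) and Gsdmd (0.51) in anti-CD8a against WT mice, and all 8 intervals of anti-CD8a against PBS within APP-PS1 mice include 0.

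NLRP3 is the sensor that responds to many kinds of cell damage, including amyloid fibrils taken up by microglia. Its gene (chr11:59541568-59566956 in GRCm38) had 1.14, 1.16, 1.79, 1.35 and 1.096 CPM in the WT libraries. In the APP-PS1 PBS libraries it had 2.48, 1.55, 2.47, 2.56 and 1.55 CPM, and in the anti-CD8a libraries 1.501, 2.34, 2.89, 1.99 and 1.67 CPM. WT replicate 3 lay above the 2 lowest APP-PS1 PBS libraries and the 2 lowest treated ones, so the groups overlapped, while the means were 1.31 ± 0.287, 2.12 ± 0.523 and 2.08 ± 0.556 CPM. The 2 low APP-PS1 PBS libraries, replicates 2 and 5, and that high WT library are choroid-rich, as are the lowest treated library (replicate 1) and the lowest WT library (replicate 5, with the highest Ttr of all). The part of choroid plexus RNA in these values was not tested. Leaving out the choroid-rich libraries takes away all 3 by which the PBS-given groups overlapped. Without these 5 libraries Nlrp3 passed in both comparisons with WT, by 1.26 (adjusted p = 0.0331) in PBS-given and 1.01 (adjusted p = 0.0386) in treated mice, and over the other alternatives of the first its adjusted p ran from 0.0257 to 0.241. Leaving out APP-PS1 PBS replicate 5 alone also gave a call (1.02, adjusted p = 0.0261). The other 14 fits that left out 1 library gave none in PBS-given mice, with adjusted p-values up to 0.2095 in edgeR. In treated mice against WT, such fits gave adjusted p-values from 0.0335 to 0.439. The last was without anti-CD8a replicate 3, where the estimate fell to 0.62. AIM2, the second sensor, binds double-stranded DNA in the cytosol. Aim2 (chr1:173350879-173466040) had 5.68, 6.01, 4.62, 6.22 and 6.41 CPM in WT, then 6.74, 5.58, 7.31, 7.38 and 7.50 CPM in APP-PS1 PBS libraries, and 6.57, 6.42, 10.6, 8.94 and 7.11 CPM in anti-CD8a libraries. Every treated library was above the highest WT library, the lowest of them barely so (6.42 against 6.41 CPM), and the fitted difference of 0.48 ± 0.15 did not pass (adjusted p = 0.149). Between PBS-given APP-PS1 and WT mice the difference was 0.28 ± 0.15 (adjusted p = 0.494). Cadm3 overlaps Aim2 on the other strand and shares 0 exon bases with it, with 149968 counts over the 15 libraries against 3053 for Aim2. The part of Cadm3 reads in the Aim2 values was not tested. The Aim2 window printed above lies inside the annotated gene, not before it.

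Pycard (chr7:127989708-127993867, minus strand) encodes ASC, the adaptor on which NLRP3 and AIM2 assemble caspase-1. It had 2.18, 1.49, 1.53, 1.82 and 1.91 CPM in WT libraries, 2.11, 2.58, 2.51, 3.93 and 2.26 CPM in APP-PS1 PBS libraries, and 2.87, 2.37, 4.54, 3.51 and 2.88 CPM in anti-CD8a libraries. All WT libraries were below all treated ones, while APP-PS1 PBS replicate 1 lay just below the highest WT library. The difference between PBS-given APP-PS1 and WT mice was 0.65 ± 0.21 (adjusted p = 0.211 in edgeR) and that of the treated from the PBS-given transgenic mice 0.26 ± 0.19 (adjusted p = 0.544). The call against WT in treated mice was lost without anti-CD8a replicate 3 (0.72, adjusted p = 0.239) and without WT replicates 2, 3 or 4 (adjusted p = 0.0668, 0.0712 and 0.0549), and without the choroid-rich libraries it had a larger estimate that did not pass (1.03, adjusted p = 0.143). A fit of the 2 groups alone lost it too (0.87, adjusted p = 0.0713). Without APP-PS1 PBS replicate 1 the adjusted p was 0.0317. Over all alternatives it ran from 0.00266 to 0.239. Of the exon bases of Pycard, 485 (12.8%) overlap the antisense gene Gm45205, which was not analysed here, and reads of either strand cannot be told apart because no source used here states whether the counting used strand.

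Casp1 (chr9:5298517-5307265) encodes the protease at the centre of the complex, and its APP-PS1 PBS libraries spread widely. It had 2.97, 2.43, 3.66, 2.29 and 2.59 CPM in WT, 4.79, 5.01, 2.84, 4.21 and 2.43 CPM in APP-PS1 PBS libraries, and 4.14, 4.08, 2.93, 3.13 and 3.05 CPM in anti-CD8a libraries. Replicates 1, 2 and 4 of the PBS-given APP-PS1 mice stood above every WT library and the other 2 within the WT range, for a difference of 0.44 ± 0.21 that did not pass (adjusted p = 0.447). The split followed the animal numbers in the labels, of which 9 begin with 83 and 6 with 85. In a model with group, sex and number series, Casp1 was lower in the 85 series by 0.56 ± 0.12 (log2 -0.56, unadjusted p = 0.000256, adjusted p = 0.192, a difference chosen after the values were seen), and no gene passed (0% of 18974). Within the 83 series Casp1 ran from 2.43 to 3.66 CPM in 3 WT mice and from 4.21 to 5.01 CPM in 3 APP-PS1 mice given PBS, and from 2.93 to 4.14 CPM in 3 treated mice. Within the 85 series it ran from 2.29 to 2.59 CPM in 2 WT, from 2.43 to 2.84 CPM in 2 APP-PS1 PBS and from 3.05 to 3.13 CPM in 2 treated mice. What the number series stands for is not given in the labels. The other 7 tested members had adjusted p-values of at least 0.370 for the series.

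Gsdmd (chr15:75862327-75867408) encodes gasdermin D, whose cut form makes the pore of pyroptosis, an inflammatory cell death. It had 3.16, 2.83, 2.31, 2.79 and 2.87 CPM in WT, 2.91, 3.14, 3.34, 4.08 and 3.81 CPM in APP-PS1 PBS libraries, and 3.602, 3.48, 4.68, 3.71 and 3.54 CPM in anti-CD8a libraries. The treated group was tight apart from replicate 3, and all of it lay above WT, while the PBS-given APP-PS1 group overlapped both. The difference between PBS-given APP-PS1 and WT mice was 0.37 ± 0.12 (adjusted p = 0.251 in edgeR). The call in treated mice against WT was the more fragile of both: it held in 2 of the 15 fits that left out 1 library, and its adjusted p was 0.295 without anti-CD8a replicate 3, 0.274 without the choroid-rich libraries, 0.0731 with the sex that Xist and the Y genes show, and 0.0525 without APP-PS1 PBS replicate 1. Its estimate stayed between 0.42 and 0.60 in all alternatives, with adjusted p-values from 0.0215 to 0.295.

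Anti-CD8a replicate 3 held the highest value of its group for Nlrp3, Aim2, Pycard, Gsdmd, Il1b and Il1rn, and the lowest for Casp1 and Tnf (0 counts). The same library had the highest Cst7 of all (53.1 CPM) and the highest sum of 13 homeostatic microglia genes (1261 CPM, against 713 to 941 CPM in the other 9 APP-PS1 libraries). The part of microglial RNA in its values was not tested.

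Il1a and Il1b lie 54.6 kilobases apart on chromosome 2 and encode the ligands that start IL-1 receptor signalling. Il1a (chr2:129299610-129309972) had 0.726, 0.724, 0.692, 0.889 and 0.731 CPM in WT and 1.59, 1.09, 0.920, 1.34 and 0.993 CPM in APP-PS1 PBS libraries. Its treated libraries had 0.834, 1.31, 1.01, 1.48 and 0.961 CPM. PBS-given APP-PS1 libraries were all above WT, and 1 treated library fell within the WT range, but neither difference from WT passed (0.69 ± 0.21, adjusted p = 0.192, and 0.59 ± 0.21, adjusted p = 0.233). Il1b (chr2:129364570-129371139) rested on few reads, 46 counts over the WT group, 71 over the APP-PS1 PBS group and 70 over the treated group. It had 0.181 to 0.393 CPM in WT, 0.334 to 0.993 CPM in APP-PS1 PBS and 0.200 to 0.673 CPM in anti-CD8a libraries, so all groups overlapped. The highest value, in APP-PS1 PBS replicate 5, came from the shallowest library, and the 95% interval of the fold against WT, 1.05 to 3.33 (adjusted p = 0.393), shows how little this depth fixes. Antisense genes share 11.2% of the exon bases of Il1a (Gm14023, 157 counts over the 15 libraries against 456) and 1.31% of those of Il1b (Il1bos, 83 counts against 187).

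Il18 (chr9:50554827-50581840) encodes the second cytokine that caspase-1 activates. It had 17.0, 16.4, 14.2, 22.1 and 16.0 CPM in WT, 19.0, 18.6, 19.1, 18.4 and 20.4 CPM in APP-PS1 PBS libraries, and 16.9, 15.4, 16.3, 17.6 and 17.7 CPM in anti-CD8a libraries. It had nearly the same mean in WT (17.2 ± 2.96 CPM) and treated mice (16.8 ± 0.958 CPM), and every treated library was below every PBS-given APP-PS1 library, as for 0.843% of genes. That difference, -0.19 ± 0.09, did not pass (adjusted p = 0.400 in edgeR), and its 95% interval of the fold was 0.766 to 1.01. With 2532 to 2688 counts per group it was the best measured member, and its 95% interval between PBS-given APP-PS1 and WT mice, 0.961 to 1.29-fold, was the narrowest of the 8.

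Il1rn (chr2:24336853-24351494), the receptor antagonist, and Tnf (chr17:35199381-35202007) were too scarce to be tested in the filtered fit. Il1rn had 0, 2, 3, 0 and 1 counts in WT, 2, 6, 3, 3 and 1 counts in APP-PS1 PBS and 5, 4, 10, 5 and 4 counts in anti-CD8a libraries. Its sums were 6, 15 and 28 counts, and in CPM every treated library was above every WT library. The same held for 2.16% of the tested genes, to which Il1rn does not belong. In the fit with no filter the difference between treated and WT mice was 2.11 ± 0.67 (adjusted p = 0.162 in edgeR), and between PBS-given APP-PS1 and WT mice 1.48 ± 0.74 (adjusted p = 0.649). Tnf had 0, 0, 3, 3 and 1 counts in WT, 3, 2, 1, 1 and 0 counts in APP-PS1 PBS and 5, 2, 0, 2 and 2 counts in treated libraries. With sums of 7, 7 and 11 counts, no difference in Tnf was detectable at this depth.

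Microglia are the main source of most of these transcripts in brain, and the tissue of the groups differed in microglial RNA and in some astrocyte genes. The sum of 13 homeostatic microglia genes was 572 ± 33.9 CPM in WT, 821 ± 75.9 CPM in APP-PS1 PBS and 883 ± 219 CPM in anti-CD8a mice, and 7 of the 13 genes rose in PBS-given and 10 in treated APP-PS1 mice against WT. Of 16 genes of disease-associated microglia 10 and 11 rose. Of all genes, 0.938% and 1.76% were called higher in these comparisons. Of 7 astrocyte markers, Gfap rose in both groups of APP-PS1 mice against WT (1.23 ± 0.14, adjusted p = 0.000292, and 1.29 ± 0.14, adjusted p = 0.000127, in edgeR) and Aqp4 in the PBS-given ones (0.46 ± 0.10, adjusted p = 0.0459). Aldh1l1, Slc1a3, Gja1, S100b and Aldoc were not called in any comparison. The astrocyte sum was 2646 to 2988 CPM in WT, 3204 to 3943 CPM in APP-PS1 PBS and 3029 to 4077 CPM in anti-CD8a libraries, above WT without overlap. Gfap alone had means of 382, 833 and 879 CPM in these groups and made up most of the rise of the sum. The part of astrocyte RNA in the members' values was not tested. In bulk tissue, more cells of a type and more RNA per cell cannot be told apart. Per 1000 CPM of the homeostatic sum, the means of 7 tested members lay between 0.832 times (Aim2) and 1.33 times (Il1b) the WT mean in APP-PS1 mice given PBS, with Nlrp3 at 1.12, Pycard at 1.04, Casp1 at 0.964, Gsdmd at 0.863 and Il1a at 1.101 times. In treated mice Pycard was at 1.18 and Gsdmd at 0.902 times the WT mean. On this scale the groups of these 7 members overlapped in every comparison. Il18 alone did not overlap with WT, lower in both APP-PS1 groups, at 29.9 ± 3.55 in WT, 23.4 ± 2.23 in APP-PS1 PBS and 19.8 ± 4.48 in treated mice. On the same scale 58.5% and 53.9% of all tested genes were lower without overlap in these comparisons. A further 0.306% and 0.3% of genes were higher than in WT without overlap, and no tested member was among them. Between both APP-PS1 groups 0.0685% of genes were higher and 0.211% lower without overlap, and no tested member was.

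**Figure D3:**
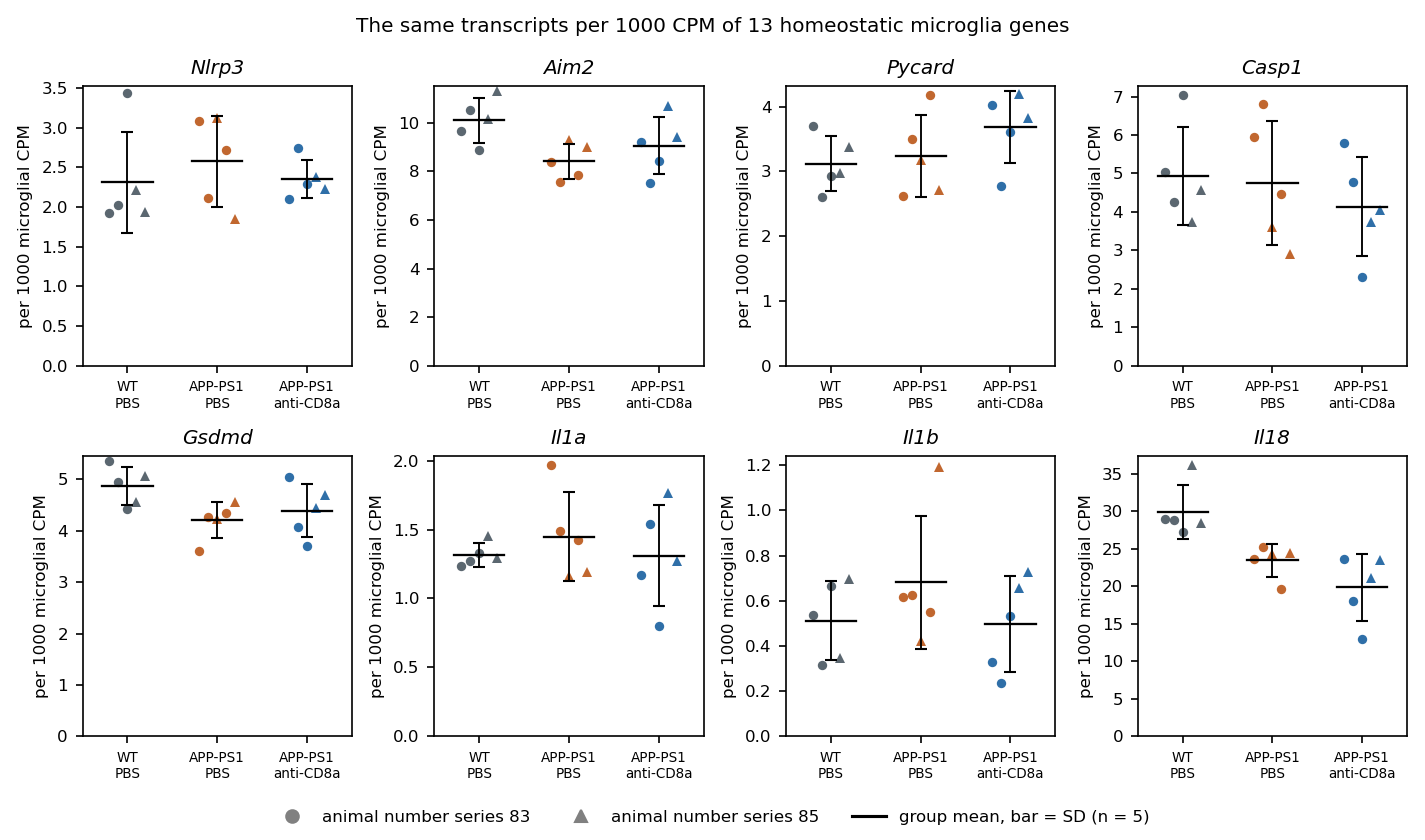
The 8 tested members per 1000 CPM summed over 13 homeostatic microglia genes (linear axis from 0); each point is 1 mouse, marked by number series as circle (83) or triangle (85), with group mean and SD (n = 5). Pycard has means of 3.12, 3.24 and 3.68 in WT PBS, APP-PS1 PBS and anti-CD8a mice with overlapping points, and Il18 lies at 27.2 to 36.1 in WT against 12.9 to 25.2 in both APP-PS1 groups.

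Markers of other immune cells that can express inflammasome genes were counted as well. Of 10 neutrophil genes 4 were tested and 1, Csf3r, which microglia also express, rose (1.15 ± 0.16, adjusted p = 0.00102, and 1.26 ± 0.15, adjusted p = 0.000298, in PBS-given and treated mice against WT). The summed neutrophil list ran from 8.39 to 12.2 CPM in WT, from 15.4 to 20.8 CPM in APP-PS1 PBS and from 16.2 to 31.2 CPM in anti-CD8a libraries, and Csf3r itself made up most of it (8.44, 16.7 and 18.4 CPM on average). The defining gene Ly6g had 1, 0 and 1 counts per group and S100a8 43, 37 and 41. No gene of the 7 tested monocyte markers (sums 176 to 273 CPM) or the 7 tested border macrophage markers (sums 7.66 to 23.5 CPM) was called in any comparison. Fn1 (87.3 CPM over all libraries), Nr4a1 (46.9), Vcan (43.1) and Ace (28.2) made up most of the monocyte sum. Ccr2 and Ly6c2 stood at 0.579 and 0.993 CPM, with 68, 99 and 88 counts and 138, 120 and 185 counts per group. The sum is thus no measure of monocytes in this tissue. T and NK cell genes summed to between 1.35 and 3.19 CPM in all libraries.

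Among mice of the same group, the members did not all vary together. With group means removed, log2 CPM over the 15 libraries gave Pearson correlations of 0.78 between Pycard and Gsdmd, 0.73 between Aim2 and Gsdmd and 0.61 between Aim2 and Pycard. Casp1 stood at -0.69 with Aim2, -0.54 with Il18, -0.51 with Gsdmd and -0.36 with Il1b, but at -0.12 with Pycard, 0.14 with Nlrp3 and 0.25 with Il1a, while Nlrp3 was between -0.30 and 0.35 with the other members. Il1a and Il1b, close neighbours in the genome, stood at -0.04. The number series, in which Casp1 was lower by 0.56 (log2 -0.56) in the 85 mice and Aim2 and Il18 had estimates of 0.20 and 0.17, is part of these values. With the series removed too, a step added after the values were seen, Casp1 stood at -0.66 with Aim2, -0.69 with Gsdmd, -0.22 with Pycard and -0.22 with Il18. These values describe 15 libraries that share depth and tissue makeup and carry no test, and Il1b enters with 5 to 20 counts per library.

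The 3 genes whose log2 CPM followed each member most closely over all 15 libraries, group differences included, were sought among 15605 genes with a mean of at least 1 CPM. For Aim2 they were P2ry13 (r = 0.94), Sp100 (0.93) and Axl (0.92), and for Pycard Olfml3 (0.93), Ctsz (0.92) and C1qb (0.91). Gsdmd had Liph (0.93), Spi1, the gene of PU.1 (0.92), and Pik3ap1 (0.92), and Nlrp3 had Inpp5d and Csf2rb (0.88 each) and Rims1, a gene of the neuronal active zone (0.87). For Il1a they were St14 (0.84), the chemokine gene Ccl3 (0.82) and the complement receptor gene C3ar1 (0.81). Casp1 had Asap1 (0.82), Pfkp (0.81) and Sec14l3 (0.80), Il1b had Gm25082 (0.82), Pi4k2b (0.80) and Tmbim1 (0.80), and Il18 had Atp5s (0.86), Mthfd2l (0.84) and Gm42433 (0.83). P2ry13 and Olfml3 are on the list of homeostatic microglia genes, and Axl and Ccl3 on that of disease-associated microglia. The libraries share groups, tissue makeup and depth, and the correlations are a description.

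Of the other genes of the pathway, sensors of the NAIP family rose in both comparisons with WT. These proteins bind flagellin and parts of bacterial secretion systems and act through NLRC4. In APP-PS1 mice given PBS 3 of 11 tested sensors rose against WT and 0 fell (0.938% and 0.0896% of all genes). Naip6 went from 1.39 ± 0.168 to 2.498 ± 0.418 CPM (0.99 ± 0.15, adjusted p = 0.00348), Naip5 from 2.26 ± 0.329 to 3.74 ± 0.608 CPM (0.90 ± 0.19, adjusted p = 0.0233) and Naip2 from 2.39 ± 0.462 to 4.04 ± 0.733 CPM (0.89 ± 0.18, adjusted p = 0.0195). For all 3 the APP-PS1 PBS libraries lay above all WT libraries, as for 1.83% of all tested genes. In treated mice 4 of 11 rose against WT, Naip6 (1.23 ± 0.15, adjusted p = 0.000299), Naip2 (0.90 ± 0.18, adjusted p = 0.0106), Naip5 (0.83 ± 0.18, adjusted p = 0.0226) and Nlrp1b, a sensor of proteases (0.91 ± 0.20, adjusted p = 0.0262). Nlrc4, the partner of the NAIPs, had -0.15 ± 0.45 and -0.69 ± 0.46 in the same comparisons and Naip1 -0.29 ± 0.34 and -0.02 ± 0.32, and none of these passed. Both were named after their values were seen. The 3 called Naip genes lie within a cluster on chromosome 13 and belong to 1 gene family. How alike their sequences are was not examined, so the split of reads between them is uncertain. Without the choroid-rich libraries 0 sensors passed in PBS-given and 2 in treated mice (Naip2 and Naip6), without the sex covariate 1 (Naip6) and 2, and without anti-CD8a replicate 3 the second count was 1 (Naip6). With 1 library left out, Naip5 kept its call in 9 of 15 fits in PBS-given and 10 in treated mice and Nlrp1b in 9 in treated mice, against 14 or 15 for Naip2 and Naip6.

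Aim2 sits at the edge of a cluster of interferon-inducible genes on chromosome 1 that encode the AIM2-like receptors, and most of these had larger estimates than Aim2. Their median log2 fold change was 1.15 in PBS-given and 1.53 in treated APP-PS1 mice against WT over 7 tested genes, with 0 and 4 called higher (0.938% and 1.76% of all genes). Ifi204, 281.3 kilobases from Aim2, went from 0.772 ± 0.403 CPM in WT to 1.87 ± 0.280 CPM in PBS-given mice (1.42 ± 0.34, adjusted p = 0.0677) and 3.14 ± 1.62 CPM in treated mice (2.16 ± 0.33, adjusted p = 0.00188). Ifi209 (1.89 ± 0.38, adjusted p = 0.0141), Ifi207 (1.89 ± 0.42, adjusted p = 0.0264) and Ifi213 (1.53 ± 0.36, adjusted p = 0.0385) were the others called in treated mice against WT. Between both APP-PS1 groups the list had a median of 0.37 and no call. These genes are copies of each other at low levels, and the count in treated mice was 1 (Ifi204) without anti-CD8a replicate 3 and 0 without the choroid-rich libraries. Ifi213 kept its call in 4 of the 15 fits that left out 1 library, Ifi207 in 11, Ifi209 in 14 and Ifi204 in 15.

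**Figure D4:**
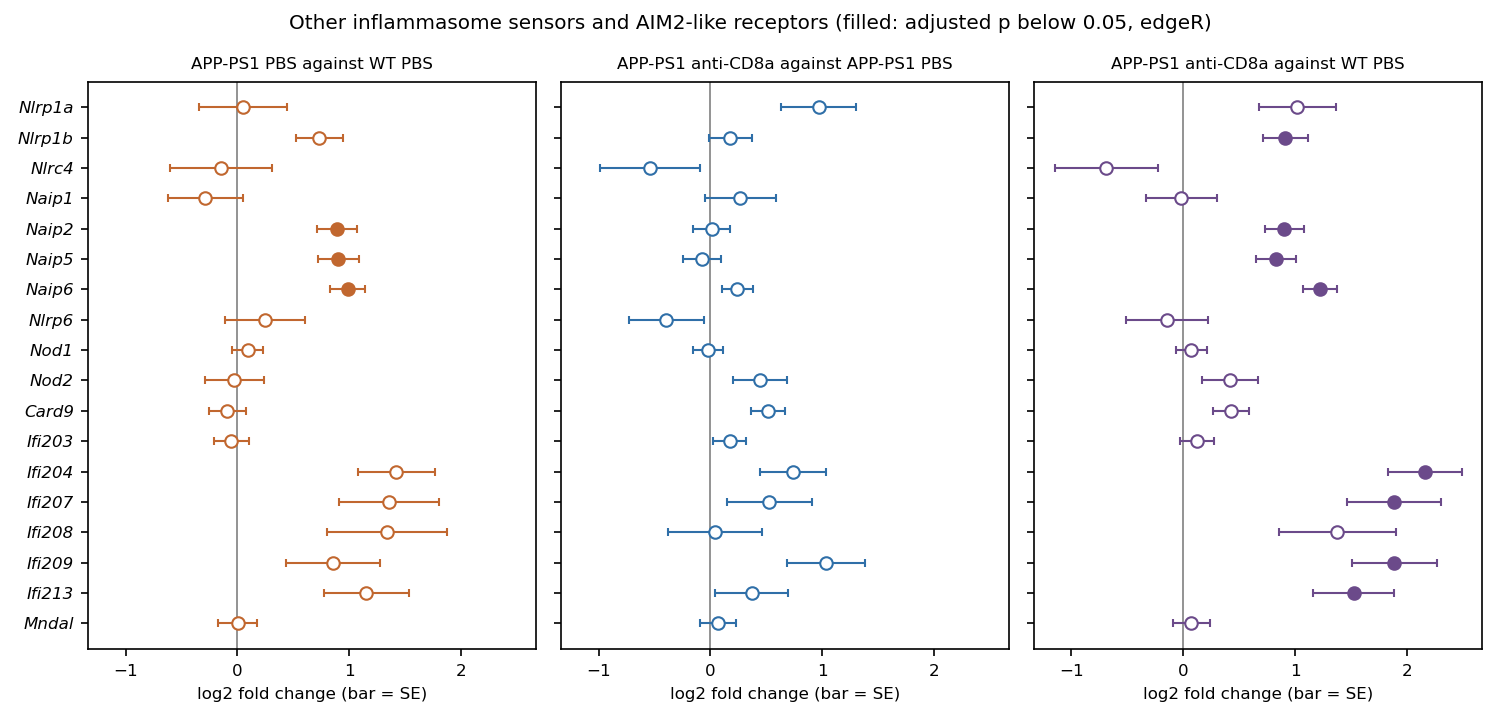
Fitted log2 fold change (points) and its SE (bars) of 11 other inflammasome sensors (Nlrp1a to Card9) and 7 AIM2-like receptor genes (Ifi203 to Mndal) in the 3 comparisons; filled points have an adjusted p below 0.05 in edgeR's test. Naip2, Naip5 and Naip6 are filled in both comparisons with WT, with values from 0.83 to 1.23, and no point is filled between anti-CD8a and PBS within APP-PS1 mice.

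Among 23 tested cofactors, other caspases and pore proteins, 0 were called in PBS-given APP-PS1 mice against WT and 9 rose in treated mice (1.76% of all genes). Casp4, which encodes the caspase that senses bacterial lipopolysaccharide and lies 1.6 kilobases from Casp1, had 0.407 ± 0.0612 CPM in WT, 0.863 ± 0.340 CPM in PBS-given and 0.969 ± 0.259 CPM in treated APP-PS1 mice. It rose in treated mice (1.36 ± 0.26, adjusted p = 0.0105) and missed the threshold in PBS-given mice (1.16 ± 0.27, adjusted p = 0.0582). Both APP-PS1 groups lay wholly above WT, as for 2.16% of tested genes in treated and 1.83% in PBS-given mice. Others that rose in treated mice were Trim30a (1.15 ± 0.18, adjusted p = 0.00225), the guanylate-binding protein genes Gbp5 (0.74 ± 0.15, adjusted p = 0.0138) and Gbp3 (1.06 ± 0.23, adjusted p = 0.0193), Tmem173, which encodes the adaptor STING (0.56 ± 0.12, adjusted p = 0.0197), P2rx7, the ATP-gated channel upstream of NLRP3 (0.41 ± 0.09, adjusted p = 0.0219), the kinase gene Syk (0.58 ± 0.13, adjusted p = 0.0241) and Zbp1 (2.02 ± 0.50, adjusted p = 0.0489). Of the 8 genes named here, Trim30a alone kept its call without anti-CD8a replicate 3, and none did without the choroid-rich libraries. Over the 15 fits that each left out 1 library, Zbp1 kept its call in 4, Syk in 10, P2rx7 and Tmem173 in 12 each, and the other 4 in 13 to 15.

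Few receptors and signalling genes downstream of the cytokines were called. None of 10 tested genes of the IL-1 family outside the members was called in any comparison, with Il33, the alarmin of glial nuclei, at 104 ± 11.03, 115 ± 7.91 and 103 ± 8.17 CPM in the 3 groups and Il1rl2, the receptor for IL-36, closest to a call (0.81 ± 0.22 in PBS-given mice, adjusted p = 0.105). Of 20 TNF receptor and signalling genes 1 rose in treated mice against WT, where 1.76% of all genes were called higher. It was Tnfrsf1b, which encodes TNF receptor 2 (0.64 ± 0.13, adjusted p = 0.0159), and it lost its call without anti-CD8a replicate 3. None of 13 NF-kappaB genes or 11 adaptors of the IL-1 and Toll receptors was called, with medians over the NF-kappaB genes of 0.03 in PBS-given and 0.18 in treated mice against WT. Among 13 tested other cytokines Tgfb1 (0.81 ± 0.14, adjusted p = 0.00587), Lif (0.77 ± 0.15, adjusted p = 0.00981) and Csf1, the growth factor of microglia (0.41 ± 0.10, adjusted p = 0.0372), rose in treated mice against WT (1.76% of all genes). None of the 13 passed without the choroid-rich libraries or without anti-CD8a replicate 3. Leaving out 1 library at a time, Csf1 kept its call in 5 of 15 fits and Tgfb1 and Lif in 14 each. None of the 8 lists had a gene called lower in any comparison, nor any gene called between both transgenic groups, by edgeR. DESeq2 called 1 between these APP-PS1 groups, the adaptor gene Tab1.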

How the data were processed

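Poly(A) RNA of a brain region from 1 hemisphere was sequenced with a stranded kit, per the labels' protocols. The deposited table holds raw read counts of 46078 genes in 15 libraries, which the authors made with Bowtie2 2.2.2 and HTSeq 0.11.2 on GRCm38, per the submitters' processing notes (FastQC and DESeq2 are named too). Bowtie2 does not align across introns, so reads over exon junctions can be lost. No source used here states the annotation release or the strand setting. HTSeq's 5 summary lines (24.7 to 30.2% of reads per library) were left out. Symbols matched 45143 genes, and places and exon lengths are from GENCODE M21 on the same build.

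Groups came from the labels. No 2 libraries of a group were duplicates (chi-square per degree of freedom 7.62 to 38.7 over 30 pairs). Counts were tested with edgeR 4.0.16 in R 4.3.3 (TMM, filterByExpr, quasi-likelihood test, two-sided) in 1 model of group and labelled sex over 15 libraries, with 11 residual degrees of freedom and Benjamini-Hochberg adjustment over 18974 genes at 0.05. Values after ± are standard errors for log2 fold changes and SDs for levels. The script was tested on simulated data. Alternatives were DESeq2 1.42.0, limma-voom (limma 3.58.1), other size factors, filters and covariates, subsets of libraries and leaving out each library.

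The members, lists and rule for named genes were chosen with earlier results of these data known. The text names all 10 members, in each list genes of a mean of at least 0.5 CPM among the 4 of smallest p and every gene that passed (1 gene that the rule takes is not reported here), and for each member the 3 genes of highest correlation of log2 CPM (prior count 2).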

Additional observations from a re-analysis of the deposited data

Results flagged for a closer look

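Of 30 sets of 5 values examined (10 members in 3 groups), 5 had 1 library farther from the others than Dixon's test allows, where chance flags about 1 in 20. Pycard was at 3.93 CPM in APP-PS1 PBS replicate 4, against 2.11 to 2.58 CPM in the other 4. Gsdmd was at 4.68 CPM in anti-CD8a replicate 3, against 3.48 to 3.71 CPM in the others of its group, and Il1rn at 0.337 CPM in the same library (10 counts) against 0.1098 to 0.172 CPM. Il1a was at 0.889 CPM in WT replicate 4, against 0.692 to 0.731 CPM in the other WT libraries. Il1b was at 0.993 CPM in APP-PS1 PBS replicate 5, against 0.334 to 0.518 CPM in its group.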

How the results depend on the processing

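Between PBS-given APP-PS1 and WT mice the count of members called was 0, and 1 (Nlrp3) with DESeq2 and without the choroid-rich libraries. Leaving out each library gave 0 to 1. Between the APP-PS1 groups it was 0 in every alternative run. Between treated and WT mice it was 2, and 1 without a filter or without the sex covariate (Pycard both times) and 1 with the 2 groups alone or without the choroid-rich libraries (Nlrp3 both times). Leaving out each library gave 0 to 2, and 0 without WT replicates 2, 3 or 4 or anti-CD8a replicate 3. With the sex that Xist and the Y genes show the count stayed 2, with Nlrp3 in place of Gsdmd. The cause of these changes was not tested.

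Estimates near 0, none of them called, changed sign. Without the choroid-rich libraries Il18 was at -0.044 in PBS-given APP-PS1 against WT mice, and between the APP-PS1 groups Il1b was at 0.098, Naip2 at -0.12 and Syk at -0.0088. Naip2 was also at -0.011 with limma-voom and -0.0035 with the 2 groups alone, and with sex read from the genes Nlrp3 was at 0.014 and Naip5 at 0.022. Leaving out 1 library gave, between the APP-PS1 groups, Nlrp3 from -0.21 to 0.033, Il1a from -0.24 to 0.040, Naip2 from -0.13 to 0.073, Naip5 from -0.28 to 0.023 and Tmem173 from -0.0080 to 0.13, and Il18 in treated against WT mice from -0.087 to 0.061.

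Over all alternatives and left-out libraries, the count of list genes called in treated against WT mice ran from 1 to 4 for the other sensors, 0 to 4 for the AIM2-like receptors, 1 to 11 for the cofactors, 0 to 3 for the other cytokines and 0 to 2 for TNF signalling. In PBS-given APP-PS1 against WT mice the sensors ran from 0 to 3 and the cofactors from 0 to 4 (4 with DESeq2), and the other lists were at 0 or 1. Over all genes the calls in that comparison were 195, against 361 with DESeq2, 115 without the sex covariate and 98 without the choroid-rich libraries. Between the APP-PS1 groups they were 0, against 143 with DESeq2 and 13 without a filter. In treated against WT mice they were 369, against 221 with the 2 groups alone, 199 without the choroid-rich libraries and 140 without anti-CD8a replicate 3.

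No paired analysis was possible because the animal numbers in the labels are not shared between groups. Depth limits Il1rn and Tnf, at or near 3 counts in most libraries, and Il1b, at 5 to 20 counts.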
